A study of Mus musculus with 8 samples.

Results

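Fibroblast growth factors (FGFs) and their receptors were examined in 8 mouse tumors grown from 4T1 cells, a mammary carcinoma line that forms invasive tumors in BALB/c mice. The family was taken by gene name as 10 genes, the ligands Fgf1, Fgf2, Fgf7, Fgf10, Fgf18 and Fgf21 and the receptors Fgfr1, Fgfr2, Fgfr3 and Fgfr4. All 10 were measured, among 19937 named genes, each by 1 probe set that listed no other gene. All tumors came from 4T1 cells placed in the fourth mammary gland of BALB/c mice and grown for 18 days. In 4 tumors (preirradiated) that gland had first received a single local X-ray dose of 20 Gy, and in the other 4 (nonirradiated) it had not. The labels used here give no age or sex of the mice and leave unsaid whether every tumor had its own host, so p-values measure the spread between these tumors.

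FGFs bind heparan sulfate on the cell surface and pair receptor tyrosine kinases, which pass the signal through adaptor proteins to RAS and the kinase ERK. Sprouty proteins and dual-specificity phosphatases are switched on by the pathway and hold it back. In the mammary gland, Fgf7 and Fgf10 are made by stromal cells and act on the splice form of Fgfr2 found on epithelium, while Fgf1 and Fgf2 lack a classical secretion signal and act on a wider range of receptor forms. The probe sets average over exons, so splice forms of the receptors were not separated.

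Values are log2 signals from robust multi-array averaging (RMA), where a difference of 1.0 is a doubling, given as mean ± SD over n = 4 tumors per group. Differences are preirradiated minus nonirradiated, on the log2 scale. The RNA came from whole tumor tissue, in which fewer cells of a type and less RNA per cell cannot be told apart. The arrays differed little as a whole, with correlations between 0.991 and 0.996. Epithelial markers were well detected in every tumor, with the keratin Krt8 at 12.5 to 12.6. Their list mean was 9.30 to 9.50 in nonirradiated and 9.38 to 9.97 in preirradiated tumors. On average 10 of 10 genes of the list were higher in preirradiated tumors, beside 47.4% of all named genes. Preirradiated tumors 1 and 3 stood apart in skeletal muscle genes, by 2.83 and 4.18 above the nonirradiated mean of 12 markers, so results are also given without them where these tumors matter.

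No FGF gene passed correction for testing all 34738 probe sets (limma, Benjamini-Hochberg): 0 probe sets (0%) had an adjusted p under 0.05, and Fgf2 came closest among the 10, at 0.687. Without adjustment 2015 probe sets had a p under 0.05. Before adjustment 4 of the 10 had a p under 0.05, 3 of them higher (Fgf2, Fgfr1 and Fgf10) and 1 lower (Fgf1) in preirradiated tumors. Over all probe sets 5.8% had such a p, with 2.84% higher and 2.97% lower. Over all named genes 5.66% did, with 2.39% higher and 3.27% lower. In the same 4 genes the groups did not overlap, against 3.36% of all probe sets (1.67% higher, 1.68% lower). Fgf2 alone passed the filter that the study set, which asks for a change of at least 0.4 in size beside an unadjusted p of 0.05 or less. Of all probe sets 0.642% passed it (0.489% as higher). The median difference of the 10 genes was 0.036, beside -0.0038 over all named genes. The 10 genes were chosen with earlier results of these data known, so these counts do not test the family.

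**Figure D1:**
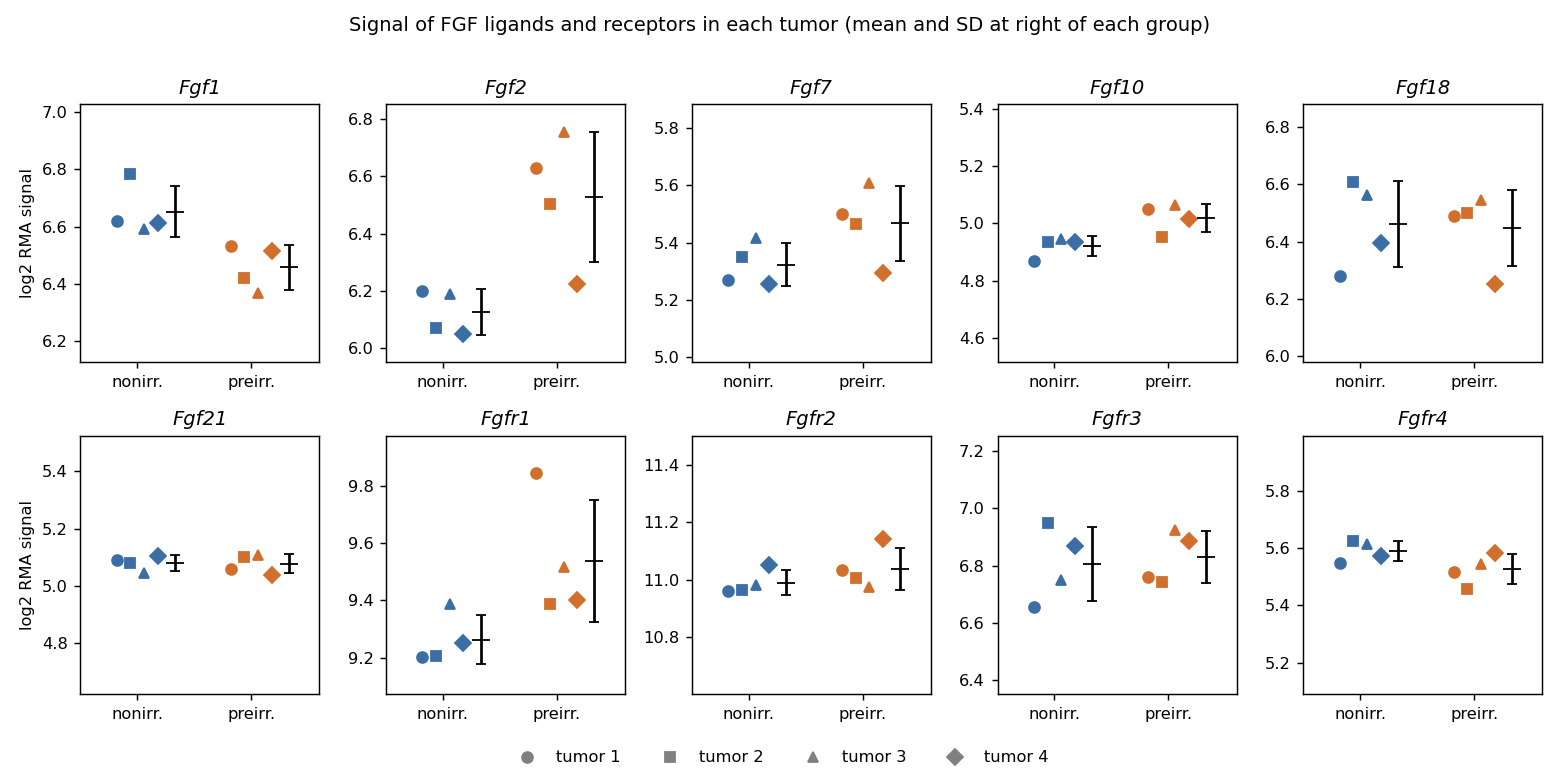
Log2 RMA signal of each FGF ligand and receptor in the 8 tumors, 1 panel per gene with the same span of 0.9 on each vertical axis; points are tumors, marked by their number, and bars are the mean and SD of 4. Fgf2, Fgf10 and Fgfr1 lie higher and Fgf1 lower in preirradiated tumors without overlap, and Fgf21 and Fgfr2 vary little.

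Fgf2, a mitogen of fibroblasts and endothelial cells that is stored in the matrix, had the largest difference of the family. Its signal was 6.20, 6.07, 6.19 and 6.05 in nonirradiated tumors 1 to 4 and 6.63, 6.50, 6.75 and 6.22 in preirradiated tumors 1 to 4. The groups did not overlap, but preirradiated tumor 4 exceeded the highest nonirradiated tumor by no more than 0.022, while the other 3 stood well clear. The means were 6.53 ± 0.23 and 6.13 ± 0.08, a difference of 0.40 (SE 0.11, 95% interval 0.16 to 0.65) or 1.32-fold. The limma p was 0.0053 before and 0.687 after adjustment. An exact two-sided permutation test gave 0.0286, the smallest p that 70 assignments of the tumors allow. Any gene whose groups do not overlap gets this value, and Fgf1, Fgf10 and Fgfr1 did too. The Fgf2 difference of 0.4005 lay at the filter's limit of 0.4. Fgf2 missed the filter when preirradiated tumor 3 (0.33), tumor 1 (0.37) or both (0.24) were left out, and also without nonirradiated tumor 2 (0.38) or 4 (0.37). In preirradiated tumors 2 and 4 the skeletal muscle list means of 5.90 and 6.06 lay within the nonirradiated range of 5.87 to 6.14. Their Fgf2 signals were 0.38 and 0.10 above the nonirradiated mean. The part of muscle tissue in the Fgf2 difference was not tested.

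Fgf1, a ligand able to bind all 4 receptors, was the single member whose signal in every preirradiated tumor lay below that in every nonirradiated tumor. It was 6.62, 6.78, 6.59 and 6.61 in nonirradiated and 6.53, 6.42, 6.37 and 6.51 in preirradiated tumors 1 to 4. The gap between the groups was 0.058, and nonirradiated tumor 2 stood above the rest. The means were 6.46 ± 0.08 and 6.65 ± 0.09, a difference of -0.19 (SE 0.058, 95% interval -0.33 to -0.059), or 1.14-fold higher in nonirradiated tumors. The limma p was 0.0104 before and 0.773 after adjustment. Fgf1 missed the study's filter by its size. The difference was -0.19 without preirradiated tumors 1 and 3, where the unadjusted limma p was 0.041. It ran from -0.22 to -0.15 when single tumors were left out, with an unadjusted limma p under 0.05 in all 8 cases. In preirradiated tumors Fgf1 was lowest in tumor 3, the tumor in which Fgf2 was highest.

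Fgf10 and Fgf7, the stromal ligands of epithelial Fgfr2, were higher on average by small amounts and gave low signals. Fgf10 was 4.87, 4.93, 4.95 and 4.94 in nonirradiated and 5.05, 4.95, 5.06 and 5.01 in preirradiated tumors 1 to 4. The groups touched, with 0.0050 between preirradiated tumor 2 and nonirradiated tumor 3. The difference was 0.098 (SE 0.039, 95% interval 0.0086 to 0.19), with a limma p of 0.035 before and 0.840 after adjustment. With each array centred on its median the unadjusted limma p was 0.117, and without preirradiated tumors 1 and 3 it was 0.263 at a difference of 0.062. When single tumors were left out it stayed under 0.05 in 2 of 8 cases. Fgf7 was 5.27, 5.35, 5.42 and 5.26 in nonirradiated and 5.50, 5.47, 5.61 and 5.30 in preirradiated tumors 1 to 4. Its groups overlapped because preirradiated tumor 4 lay within the nonirradiated range. The difference was 0.14 (SE 0.070, 95% interval -0.017 to 0.30), and the unadjusted limma p of 0.074 missed 0.05. As in Fgf2, preirradiated tumor 3 was the highest and tumor 4 the lowest. Without tumors 1 and 3 the Fgf7 difference was 0.057.

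Upstream sequence of Fgf2 and Fgf10, the ligands whose signals were higher without overlap, is shown as a description. The windows differ in length and position, so they cannot be compared with each other. It is RefSeq sequence of GRCm38.p6, in which 8 of the 10 genes were matched, Fgf1 and Fgfr1 not. For Fgf2 it is the 74 bases before the first annotated base of the gene (chr3:37348403-37348476, plus strand), and for Fgf10 the 250 bases before it (chr13:118714449-118714698, plus strand). Capitals mark matches to 4 motifs searched on both strands, with no overlapping matches: the GC box GGGCGG, the TATA box TATAAA, the AP-1 site TGANTCA and the ETS core CCGGAA.
Fgf2: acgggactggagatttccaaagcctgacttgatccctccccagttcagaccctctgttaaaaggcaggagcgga
Fgf10: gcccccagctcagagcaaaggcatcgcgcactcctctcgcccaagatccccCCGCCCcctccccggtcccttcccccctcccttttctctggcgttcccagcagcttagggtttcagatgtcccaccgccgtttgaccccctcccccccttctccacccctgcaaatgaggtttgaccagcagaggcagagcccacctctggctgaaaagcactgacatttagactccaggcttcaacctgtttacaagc
The Fgf10 window held 1 GC box, on the other strand, a motif found in 32.7% of all 32851 windows of that length. The Fgf2 window held none of the 4 motifs, and 21.3% of all windows of 74 bases held a GC box. GC content was 54.1% in the Fgf2 window, beside a median of 55.4% at that length, and 61.2% in the Fgf10 window, beside 52.4%. The Fgf2 window is the first 74 of 250 upstream bases, because the rest lay within the annotated gene. The windows it is set beside are the last 74 of 250, so their positions differ from that of Fgf2. These matches describe letters and were set against no binding data.

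Fgf18, a ligand of Fgfr3 known from bone and lung, varied between tumors without following the groups. Its signal ran from 6.28 to 6.61 in nonirradiated and from 6.25 to 6.54 in preirradiated tumors, so the ranges nearly coincided. The difference was -0.015 (95% interval -0.22 to 0.19), and its sign turned in 4 alternative settings. Fgf21, a hormone of metabolic stress that needs beta-klotho to signal and that can come from muscle, was 5.04 to 5.11 in nonirradiated and 5.04 to 5.11 in preirradiated tumors. In preirradiated tumors 1 and 3, rich in muscle genes, it was 5.059 and 5.108, beside a nonirradiated range of 5.044 to 5.106. Its difference was -0.0033 (95% interval -0.082 to 0.075), and the sign turned in 5 alternative settings.

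Low signals limit what can be said of several members. As a crude yardstick for probe sets near background, 1027 olfactory receptor genes had mean signals with a median of 4.72 and a 95th percentile of 5.47. The means over 8 tumors of Fgf10 (4.97), Fgf21 (5.08) and Fgf7 (5.40) lay below that percentile, and Fgfr4 (5.56) lay just above it. RMA understates changes of such genes. Fgf1, Fgf2, Fgf18 and the other receptors lay above the yardstick.

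Among the receptors, Fgfr1, which mesenchymal cells use to respond to Fgf2, had the largest difference. It was 9.20, 9.21, 9.39 and 9.25 in nonirradiated and 9.84, 9.39, 9.52 and 9.40 in preirradiated tumors 1 to 4. Preirradiated tumor 1 stood highest, and tumor 2 exceeded nonirradiated tumor 3 by 0.0015. The means were 9.54 ± 0.21 and 9.26 ± 0.09, a difference of 0.27 (SE 0.10, 95% interval 0.041 to 0.51) or 1.21-fold. The limma p was 0.027 before and 0.813 after adjustment. Without preirradiated tumor 1 the difference was 0.17 and without tumors 1 and 3 it was 0.13, where the unadjusted limma p was 0.094. That p was under 0.05 in 5 of the 8 fits that left out a single tumor.

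Fgfr2, the receptor that carries Fgf7 and Fgf10 signals in epithelium, was strongly detected and almost constant. It was 10.96, 10.96, 10.98 and 11.05 in nonirradiated and 11.03, 11.00, 10.97 and 11.14 in preirradiated tumors 1 to 4. The groups overlapped, and the difference of 0.049 had a 95% interval of -0.058 to 0.16, which leaves out changes as large as the study's limit of 0.4. Fgfr3 was 6.66 to 6.95 in nonirradiated and 6.75 to 6.93 in preirradiated tumors. Its difference was 0.023 (95% interval -0.15 to 0.19), with a sign that turned in 4 alternative settings. Fgfr4, known from liver and regenerating muscle, was 5.55 to 5.62 in nonirradiated and 5.46 to 5.58 in preirradiated tumors, with overlapping groups. In preirradiated tumors 1 and 3, rich in muscle genes, it was 5.52 and 5.54. The difference was -0.064 (95% interval -0.15 to 0.027), and the unadjusted limma p was 0.145. With each array centred on its median it was -0.098 and the unadjusted limma p was 0.029. After a further quantile normalization these were -0.086 and 0.038.

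**Figure D2:**
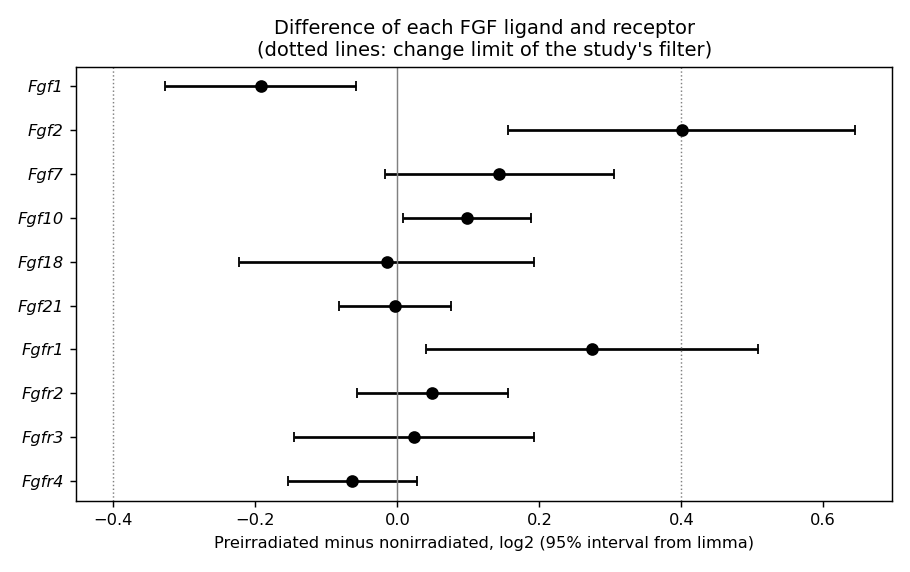
Preirradiated minus nonirradiated log2 difference of each of the 10 genes (points) with its 95% interval from limma (bars); dotted lines mark the study's limit of 0.4 in either direction. The intervals of Fgf1, Fgf2, Fgf10 and Fgfr1 leave out 0, and no more than those of Fgf2 and Fgfr1 reach 0.4.

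The differences of Fgf2, Fgf7 and Fgfr1 stood beside differences in cell type markers. Of all named genes 47.4% were higher on average in preirradiated tumors. The fibroblast marker mean was 9.25 to 9.43 in nonirradiated and 9.55 to 9.89 in preirradiated tumors, with 9 of 10 genes higher. It lay 0.52, 0.17, 0.41 and 0.19 above the nonirradiated mean in preirradiated tumors 1 to 4, and Fgf2 lay 0.50, 0.38, 0.63 and 0.10 above its own. Pericyte and smooth muscle markers (8 of 10 higher) were 7.16 to 7.26 in nonirradiated and 7.24 to 7.81 in preirradiated tumors, highest in tumors 1 and 3. They lay 0.59, 0.17, 0.58 and 0.02 above the nonirradiated mean in preirradiated tumors 1 to 4. Skeletal muscle markers (12 of 12 higher, 0 at an unadjusted limma p under 0.05) were 5.87 to 6.14 and 5.90 to 10.2. In them preirradiated tumors 2 and 4, at 5.90 and 6.06, lay within the nonirradiated range. Adipocyte markers (9 of 9 higher) were 6.31 to 6.83 and 6.50 to 8.27. Adipocyte markers were highest in preirradiated tumor 1, the tumor with the highest Fgfr1. Leukocyte markers (10 of 10 lower) were 8.08 to 8.36 and 7.88 to 8.12. In preirradiated tumors 1 to 4 they differed from the nonirradiated mean by -0.35, -0.11, -0.12 and -0.33. Fgf1 differed from its own by -0.12, -0.23, -0.28 and -0.14. Endothelial markers (7 of 8 higher) were 8.23 to 8.48 and 8.32 to 8.60, and skin epidermis markers (4 of 7 higher) were 5.51 to 6.40 and 5.69 to 6.50. The part of these cell types in the FGF results was not tested.

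**Figure D3:**
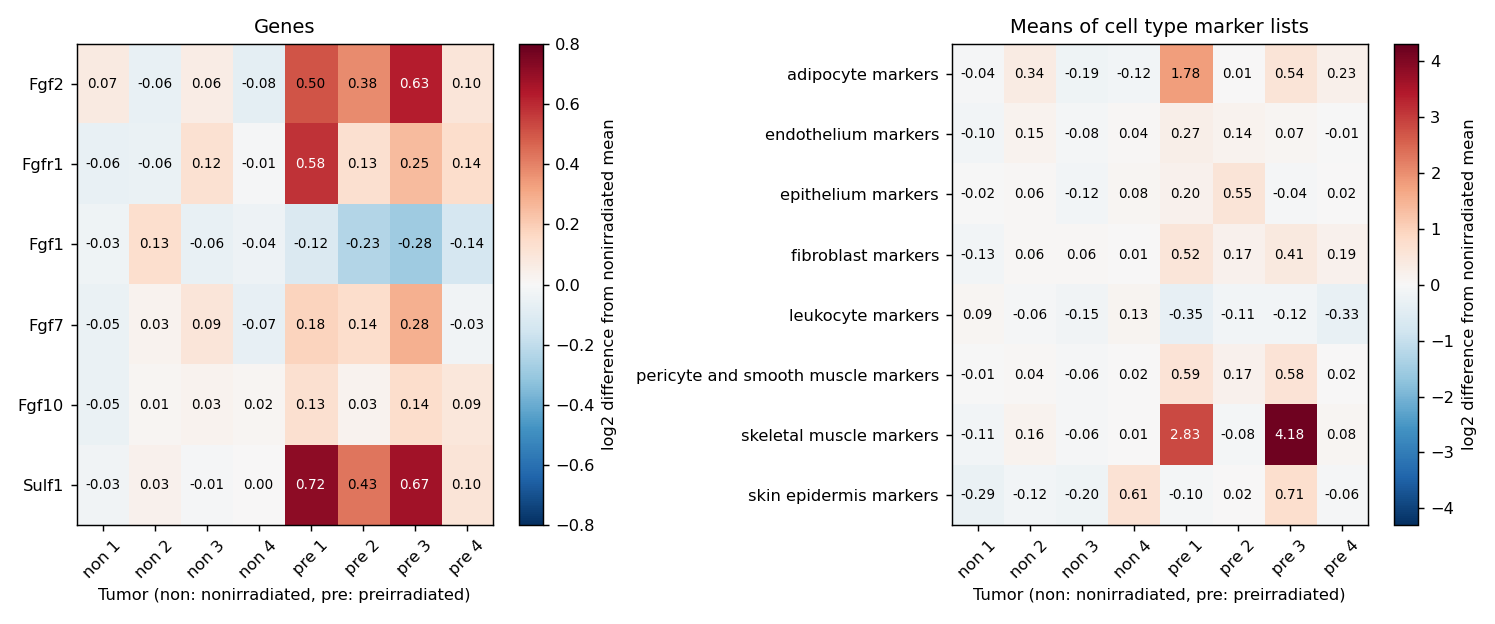
Log2 difference of each tumor from the nonirradiated mean, for 5 FGF genes and the heparan sulfate sulfatase Sulf1 (left) and for means of 8 cell type marker lists (right); the color scales of the panels differ. Fgf2 and Sulf1 are high in preirradiated tumors 1, 2 and 3, and skeletal muscle markers in tumors 1 and 3 only.

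The wider FGF pathway was described by 6 gene lists with 91 genes, of which 84 were measured. None passed the adjusted threshold with limma (smallest adjusted p 0.627). Before adjustment 5 were higher and 6 lower at a p under 0.05, 1 passed the study's filter, and the median difference was -0.0057. The shares over all probe sets are those given above, 2.84% higher, 2.97% lower and 0.642% past the filter. Among 16 other FGF ligands, 1 had an unadjusted limma p under 0.05. This was Fgf11, an FGF that stays inside the cell and does not act on FGF receptors, at 6.73 ± 0.05 in preirradiated and 6.59 ± 0.06 in nonirradiated tumors. Fgf16 was next by p, at 5.36 ± 0.06 and 5.27 ± 0.05. The differences of the 16 ran from -0.045 to 0.14.

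Heparan sulfate enzymes, which set the sulfation pattern that FGFs bind, held the single pathway gene past the study's filter. Sulf1, a sulfatase at the cell surface that removes sulfate from heparan sulfate and so lowers FGF2 signalling, was 6.95, 7.01, 6.97 and 6.98 in nonirradiated tumors 1 to 4. In preirradiated tumors 1 to 4 it was 7.69, 7.41, 7.65 and 7.08. All preirradiated tumors lay above the nonirradiated ones, and tumor 4 was the lowest, as in Fgf2. The difference was 0.48 (SE 0.12, 95% interval 0.19 to 0.77), with a limma p of 0.0045 before and 0.677 after adjustment. Without preirradiated tumors 1 and 3 it was 0.27, and Sulf1 then missed the filter. Hs6st2, a transferase that adds sulfate at the position that Sulf1 clears, was 5.21 ± 0.20 in preirradiated and 4.93 ± 0.11 in nonirradiated tumors, with both means below the yardstick of low signals and overlapping groups. Of 14 measured enzymes, 2 were higher and 0 lower at an unadjusted limma p under 0.05. Over all named genes these shares were 2.39% higher and 3.27% lower.

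Coreceptors and binding proteins went both ways, with 2 of 16 higher and 2 lower at an unadjusted limma p under 0.05. Beside them, 2.39% of all named genes were higher and 3.27% lower at such a p. Sdc3, a syndecan that carries heparan sulfate, was 9.77 ± 0.03 in preirradiated and 9.96 ± 0.06 in nonirradiated tumors without overlap, a difference of -0.19 (SE 0.041). Its limma p was 0.0019 before and 0.627 after adjustment. Gpc1, a glypican anchored to the membrane by lipid, was 10.91 ± 0.08 and 10.75 ± 0.11. The other 2, named after their values were seen, were the syndecan Sdc2 (-0.14) and the adhesion molecule Ncam1 (0.38), which can bind FGF receptors. Ncam1 was 6.92, 6.75, 7.12 and 6.29 in preirradiated tumors 1 to 4 and 6.33 to 6.44 in nonirradiated tumors. Its preirradiated tumor 4 lay below all nonirradiated tumors.

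Downstream of the receptors differences were small. Of all named genes 5.66% had an unadjusted limma p under 0.05. Among 13 measured adaptors and kinases 1 did: the adaptor Shc1 was 10.02 ± 0.07 in preirradiated and 10.15 ± 0.06 in nonirradiated tumors. Frs3, an adaptor docked on FGF receptors, was 6.99 ± 0.11 and 6.88 ± 0.06. In the main fit of all 8 tumors none of the 11 feedback inhibitors had an unadjusted limma p under 0.05 or passed the adjusted threshold. The closest by p were the sprouty gene Spry4 (0.13, 95% interval -0.023 to 0.28) and the ERK phosphatase Dusp6 (-0.080, 95% interval -0.18 to 0.024). Spry4 was 8.68, 8.53, 8.35 and 8.53 in preirradiated tumors 1 to 4 and 8.37 to 8.41 in nonirradiated tumors. The Spry4 difference was 0.074 without preirradiated tumor 1. It was 0.18 without preirradiated tumor 3 and 0.13 without both, where its unadjusted limma p was 0.0072 and 0.021. Dusp6 was 11.39 ± 0.06 and 11.47 ± 0.05. Its unadjusted limma p was 0.049 without preirradiated tumor 4 and 0.032 with each array centred on its median.

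Of 14 genes that FGF and ERK signals can switch on, 12 were lower on average in preirradiated tumors, with a median difference of -0.067. Of all 19937 named genes 10481 were lower. At an unadjusted limma p under 0.05, 3 of the 14 were lower and 0 higher, beside 3.27% and 2.39% of all named genes. Of the 14, 0 passed the study's filter, beside 0.487% of all named genes. Myc, the growth transcription factor, was 10.82 ± 0.08 in preirradiated and 10.98 ± 0.09 in nonirradiated tumors. Phlda1 was 9.65 ± 0.24 and 9.91 ± 0.05, with the lowest values, 9.35 and 9.56, in preirradiated tumors 3 and 4, and its difference of -0.27 was -0.17 without tumor 3. The third was Etv5, an ETS factor used as a readout of FGF signalling and named after its values were seen. It was 9.73, 9.65, 9.45 and 9.30 in nonirradiated and 9.30 to 9.36 in preirradiated tumors, and the groups overlapped. These genes respond to many growth factor receptors.

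**Figure D4:**
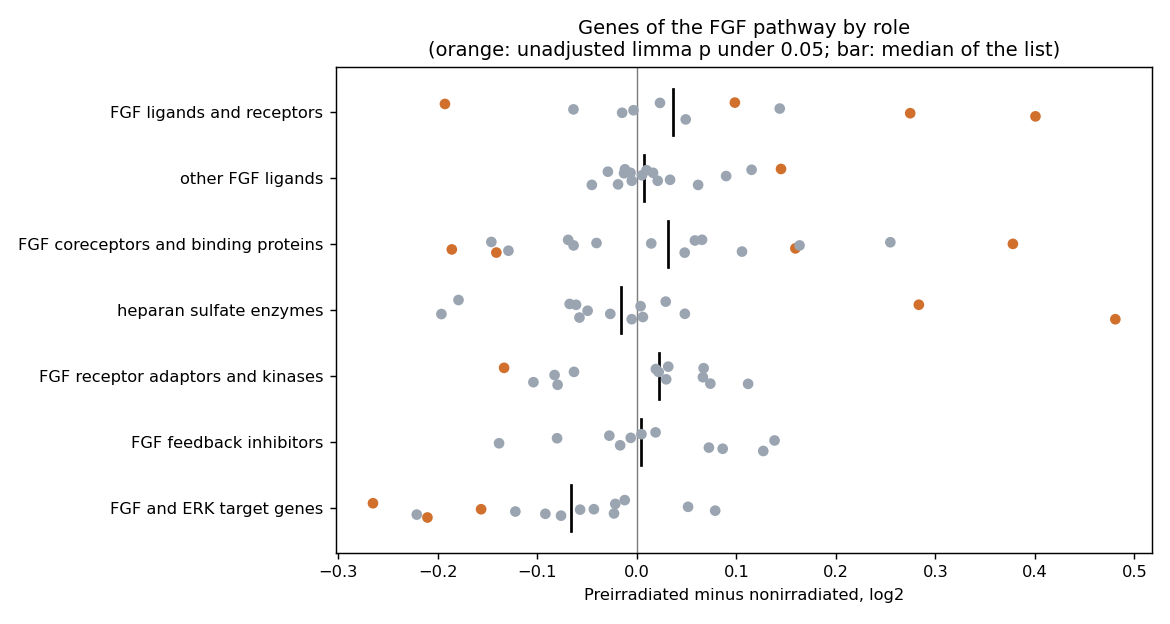
Log2 difference (preirradiated minus nonirradiated) of each measured gene by role in the FGF pathway; points are genes, orange where the unadjusted limma p is under 0.05, and vertical bars are list medians, which run from -0.067 for the target genes to 0.036 for the ligands and receptors. Fgf2 and Sulf1 are the points farthest to the right, at 0.40 and 0.48.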

How the data were processed

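Each tumor was measured on 1 Affymetrix Mouse Gene 1.0 ST array, and the authors deposited log2 values, 1 for each probe set, produced with RMA, per the series' design text. This method corrects background, makes the arrays' distributions alike and summarises probes on the log2 scale, so a change in total RNA cannot be seen. Software was affy under R 2.15.3, per the submitters' processing notes. Which chip description file was used is not given. The number of arrays, 4 per group, limits the precision.

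Gene names came from the platform annotation: 21640 of 34760 probe sets listed 1 symbol, and the one with the highest mean stood for a gene. Groups came from the sample titles. All 34738 probe sets with a mean of at least 4.0, the study's limit, were fitted by lmFit and eBayes (limma 3.58.1, R 4.3.3, two-sided). Benjamini-Hochberg adjustment was over all of them. Intervals at 95% come from this fit. The pipeline was checked on simulated data, where recovery was required only for changes far larger than those of the FGF genes. The study's filter was read as holding in either direction. The 10 genes and all lists were chosen with earlier results of these data known. Named pathway genes are those past the study's filter and the 2 of each list with the smallest p. List genes with no single-symbol probe set were not analysed here.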

Additional observations from a re-analysis of the deposited data

Results flagged for a closer look

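Nonirradiated tumor 2 stood apart from the other nonirradiated tumors in Fgf1, at 6.78 against 6.62 for the nearest. This gap was 0.853 of the range of its group. Without this tumor the Fgf1 difference was -0.15 and its unadjusted limma p was 0.022. The 10 genes gave 20 groups of tumors, and chance sets a tumor apart in about 1 of 20 groups.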

How the results depend on the processing

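The count of probe sets past the adjusted threshold was 0 in the limma fit and in every alternative. Fgf1, Fgf2, Fgf7, Fgf10, Fgfr1, Fgfr2 and Fgfr4 kept their direction in every alternative run. The other members, with differences near 0, did not: Fgf18 was 0.0040 and Fgf21 0.0072 with array weights, and Fgfr3 was -0.0054 after a further quantile normalization and -0.011 with arrays centred on their median. Leaving out single tumors gave -0.075 to 0.050 for Fgf18, -0.016 to 0.0092 for Fgf21 and -0.027 to 0.071 for Fgfr3. Fgf2 missed the study's filter, leaving 0 members past it, after a further quantile normalization (0.37), with centred arrays (0.37), without both preirradiated tumors 1 and 3 (0.24), and without nonirradiated tumor 2 (0.38) or 4 (0.37) or preirradiated tumor 1 (0.37) or 3 (0.33). Over single tumors left out, the count ran from 0 to 1. The count of members at an unadjusted p under 0.05 ran from 2 (without nonirradiated tumor 1, 2 or 4) to 4 over single tumors left out, and was 2 without preirradiated tumors 1 and 3 and 5 with array weights, where Fgf7 joined. After a further quantile normalization and with centred arrays it stayed at 4, but as 2 higher and 2 lower. Fgfr4 (unadjusted limma p 0.038 and 0.029) then stood in place of Fgf10 (0.054 and 0.117). Pathway genes past the filter numbered 2 with array weights (Sulf1 and Ncam1), 0 without preirradiated tumors 1 and 3, and 1 to 2 over single tumors left out, 2 without preirradiated tumor 4. Probe sets past the filter were 223, 102 with 1 probe set per gene, and 181 to 385 over single tumors left out, with 335 without preirradiated tumor 2 and 385 without tumor 4. Centring arrays on their median moved the median of all probe sets to -0.035 and the split of the filter from 170 higher and 53 lower to 121 higher and 70 lower. Where tumors were left out, fewer samples entered the fit; otherwise the cause was not tested. The titles number tumors 1 to 4 in both groups. Deviations of tumors with the same number correlated at -0.29 to -0.075. With 4 tumors per group these correlations cannot settle whether the numbers mark pairs, and the titles do not say. The main fit treated the tumors as unpaired. With the replicate block 193 probe sets passed the filter, 4 members had an unadjusted p under 0.05 (Fgf7, at 0.035, in place of Fgf10, at 0.089), and the Fgf2 difference of 0.40 had an unadjusted limma p of 0.0025. A mean over all probe sets of a gene gives the same values, since each member has 1. Signals near background limit Fgf7, Fgf10, Fgf21 and Fgfr4.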
